A study of Homo sapiens with 8 samples.

Results

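Natural antisense transcripts, RNAs read from the DNA strand opposite another gene, were described here as expressed in hiPS-CMs, cardiomyocytes differentiated from human induced pluripotent stem cells. The transcripts were selected on the deposited gene table by class, which had to be antisense, and by expression level, which had to reach 2 FPKM (a fragment count scaled to exon length and library size) in 4 or more of 8 libraries. Of 5559 antisense genes listed, 304 met this rule, among 60658 genes listed in all. The level of these transcripts was therefore fixed by the way they were chosen and is given as a description. The libraries came from 2 groups of 4. Cells of the H/R group (hypoxia/reoxygenation) spent 12 h at 1% O2 in low-glucose DMEM without serum, and then 12 h under reoxygenation in DMEM with serum. Cells of the H/R+BA group had the same hypoxia, and their reoxygenation took place in medium conditioned by sheets of rat brown adipocytes (BA). All libraries came from 1 iPSC line, given as 235G1 in the labels and spelled with other digits in the paper, and cells without hypoxia were not analysed here.

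Antisense RNAs take several forms. Divergent transcripts start close to the start of a coding gene and run away from it, so that both may share a promoter region. Others start inside a coding gene or beyond its 3′ end and run through its exons, where the RNAs can pair. Some, such as TTN-AS1 and NPPA-AS1, lie opposite genes that define the heart muscle cell, and some host small nucleolar RNAs in their introns.

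The library kit keeps strand, but no source used here gives the strand setting of the counting. Reads of an antisense transcript and of the gene opposite to it can therefore not be told apart where their exons overlap. For this reason the share of exon bases lying under coding exons of the other strand is given below, by GENCODE 44 on GRCh38. The 8 libraries had 39854257 to 53308952 reads, of which 95.4% to 96.3% were mapped. The labels number the replicates without naming separate cultures, so the spread between libraries may be technical. All 8 cardiomyocyte markers (TNNT2, MYH6, MYH7 and others) were above 1 FPKM, and their summed level was 2592 to 4459 FPKM in H/R and 2922 to 3767 FPKM in H/R+BA. The summed level of 6 endothelial markers was 13.1 to 23.1 FPKM in H/R and 27.7 to 34.7 FPKM in H/R+BA, with 4 of 6 called higher and VWF below 1 FPKM in the mean. The summed level of 4 pluripotent markers was 2.97 to 3.36 FPKM in H/R and 8.24 to 9.28 FPKM in H/R+BA, with 2 called higher and NANOG and SOX2 below 1 FPKM in the mean. Of 6 fibroblast markers 1 was called higher, of 4 smooth muscle markers 1 lower, and of 5 hepatic and endoderm markers 0, whose summed level was 399.9 to 1160 FPKM in H/R and 504.1 to 898.1 FPKM in H/R+BA. The part of these markers in the changes given below was not tested.

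The 4 promoter windows that follow belong to named antisense transcripts that fell (PSMA3-AS1, RAB11B-AS1) or rose (UNC5B-AS1, C1QTNF1-AS1) and whose sense gene was also measured. They are shown to set the values beside the sequence from which each RNA starts. Each runs 5′ to 3′ on the transcribed strand, the minus strand in all 4 cases, from 250 bases before to 50 bases after the start in RefSeq on GRCh38.p14. Capitals mark 3 motifs, each read on both strands. These are the CCAAT box, the GC box with the letters GGGCGG, and the core of hypoxia response elements with the letters ACGTG.
PSMA3-AS1, chr14:58298088-58298387: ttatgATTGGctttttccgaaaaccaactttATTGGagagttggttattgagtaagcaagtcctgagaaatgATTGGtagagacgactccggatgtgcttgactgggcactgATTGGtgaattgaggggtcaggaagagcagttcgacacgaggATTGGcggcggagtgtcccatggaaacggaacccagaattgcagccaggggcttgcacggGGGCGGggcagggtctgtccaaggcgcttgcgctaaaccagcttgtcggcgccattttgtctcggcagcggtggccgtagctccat
RAB11B-AS1, chr19:8390642-8390941: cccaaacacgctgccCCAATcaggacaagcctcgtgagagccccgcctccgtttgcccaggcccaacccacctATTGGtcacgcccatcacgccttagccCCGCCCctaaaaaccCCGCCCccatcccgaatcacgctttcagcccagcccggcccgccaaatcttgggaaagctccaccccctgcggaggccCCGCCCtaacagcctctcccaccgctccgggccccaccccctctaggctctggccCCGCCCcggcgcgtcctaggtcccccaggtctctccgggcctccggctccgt
UNC5B-AS1, chr10:71218179-71218478: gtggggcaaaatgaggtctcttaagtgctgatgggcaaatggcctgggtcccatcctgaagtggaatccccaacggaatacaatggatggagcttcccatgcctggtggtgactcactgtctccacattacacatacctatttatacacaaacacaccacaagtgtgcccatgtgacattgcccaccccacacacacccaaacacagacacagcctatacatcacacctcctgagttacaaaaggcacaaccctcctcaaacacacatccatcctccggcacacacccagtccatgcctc
C1QTNF1-AS1, chr17:79027606-79027905: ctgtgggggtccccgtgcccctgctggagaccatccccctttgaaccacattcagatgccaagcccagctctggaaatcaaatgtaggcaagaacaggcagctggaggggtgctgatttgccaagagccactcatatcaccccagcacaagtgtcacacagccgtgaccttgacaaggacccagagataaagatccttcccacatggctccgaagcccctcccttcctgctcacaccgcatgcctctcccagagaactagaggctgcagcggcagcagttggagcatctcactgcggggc

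PSMA3-AS1 held 5 CCAAT matches and 1 GGGCGG match in this window, and RAB11B-AS1 held 2 and 4. UNC5B-AS1 and C1QTNF1-AS1 held none of the 3 motifs. RefSeq windows could be matched to 151 of the 304 transcripts. GGGCGG stood in 65.6% of these, against 45.0% of all 35116 windows in the table, CCAAT in 35.1% against 34.6%, and ACGTG in 27.2% against 21.4%. Among the matched transcripts called below, CCAAT stood in 2 of 18 that were higher and in 6 of 15 that were lower, GGGCGG in 10 of 18 and 10 of 15, and ACGTG in 4 of 18 and 2 of 15. Matches of different motifs may overlap, and a match describes the letters only.

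Most of the 304 transcripts were low. Their median was 3.46 FPKM, 50 had a mean of at least 10 FPKM and 9 a mean of at least 50 FPKM. Together they held 0.397% to 0.486% of the summed FPKM of a library. The level of 2 FPKM was reached in all 8 libraries by 192 transcripts. It was reached only through the 4 H/R libraries by 4 transcripts and only through the 4 H/R+BA libraries by 8, and these 12 had to differ between the groups. Just inside the threshold lay CTD-3203P2.3 and DICER1-AS1, with the fourth highest value at 2.01 FPKM for each. Just outside lay RP11-379H18.1 at 1.99 FPKM and RP11-809O17.1 at 1.98 FPKM.

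By position, 147 transcripts were classed as divergent, by a start site within 2 kb of that of a coding gene on the other strand. This class rests on the start site alone, so it also holds transcripts that overlap the coding gene. RP1-261G23.7 and RP11-138I1.4 are examples, with 100% of their exon bases under coding exons. A further 89 were internal to a coding gene, 50 met a coding gene tail to tail and 7 overlapped none, while the IDs of 11 were not found in GENCODE 44. The median share of exon bases under opposite coding exons was 8.8% for divergent, 49.0% for internal and 30.3% for tail to tail transcripts. Median levels of the 3 classes were close to each other, at 3.36, 3.25 and 3.76 FPKM. In GENCODE 44, 284 were long noncoding RNAs and 6 had been moved to the coding class, TUG1 and LINC01125 (now C2orf92) among them.

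The antisense transcript of highest level was RP5-940J5.9, which lies opposite GAPDH, the glycolytic enzyme gene. It spans chr12:6537794-6538370 and 100% of its exon bases lie under coding exons. Its FPKM was 345.7, 349.5, 375.5 and 362.8 in H/R and 485.1, 525.0, 360.8 and 358.2 in H/R+BA. Replicates 1 and 2 of H/R+BA were thus above the rest, and replicates 3 and 4 lay within the range of H/R. The mean level was 5.57% of that of GAPDH, and the log2 fold change of 0.25 was not called (adjusted p = 0.164, limma). ZFAS1, a host of small nucleolar RNAs at the 5′ end of ZNFX1, was next with 115.3, 176.0, 104.1 and 162.7 FPKM in H/R and 153.7, 157.9, 160.7 and 154.0 FPKM in H/R+BA. Its H/R libraries lay on both sides of the 4 H/R+BA libraries (log2 fold change 0.20, adjusted p = 0.360, limma), and its mean level was 1178% of that of ZNFX1 per length.

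**Figure D1:**
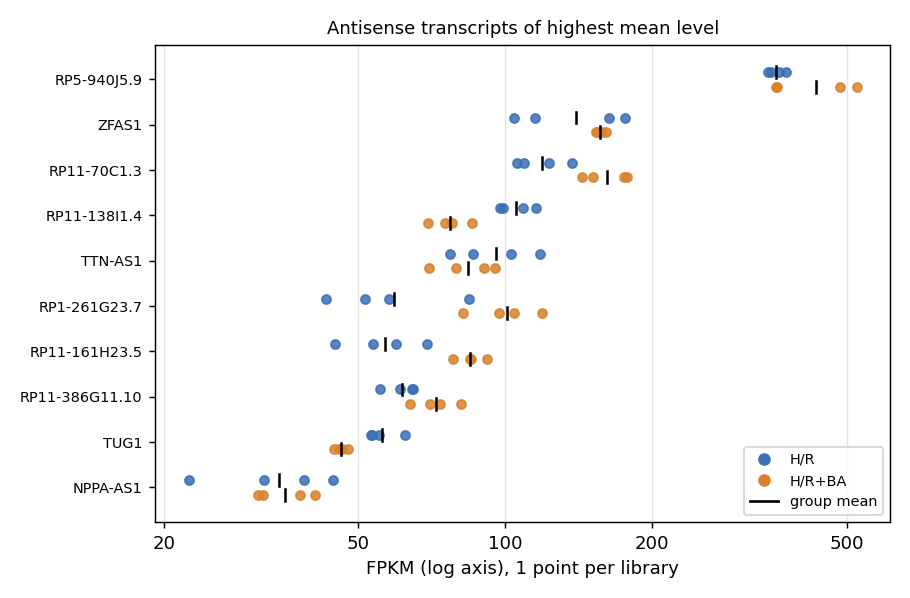
FPKM of the 10 antisense transcripts with the highest mean level, 1 point per library on a log axis, with the mean of each group as a bar. RP5-940J5.9 stands above all others, at 345.7 to 525.0 FPKM, and the groups of RP11-70C1.3, RP11-138I1.4, RP11-161H23.5 and TUG1 do not overlap.

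TTN-AS1 runs across chr2:178521183-178779963 opposite TTN, the gene of the sarcomere spring titin. It had 102.7, 77.2, 117.8 and 85.8 FPKM in H/R and 90.4, 95.5, 69.7 and 79.5 FPKM in H/R+BA. The groups overlapped and no call was made (log2 fold change −0.19, SE 0.14, adjusted p = 0.353, limma). Its mean level was 248.4% of that of TTN, which measured 39.3 ± 11.0 FPKM in H/R and 33.1 ± 3.34 FPKM in H/R+BA (SD, n = 4), and 54.9% of its exon bases lie under coding exons. NPPA-AS1, opposite the atrial natriuretic peptide gene, had 38.7, 22.5, 44.3 and 32.1 FPKM in H/R and 40.8, 38.1, 31.2 and 32.0 FPKM in H/R+BA, which is 1.12% of the level of NPPA in the mean. HAND2-AS1, which overlaps the gene of the cardiac transcription factor HAND2, had 13.5, 8.53, 14.5 and 7.88 FPKM in H/R and 14.95, 12.95, 9.44 and 10.8 FPKM in H/R+BA. In H/R, replicates 1 and 3 were above replicates 2 and 4 for all 3 transcripts. The summed cardiomyocyte markers of the same libraries were 4459, 2592, 4377 and 2964 FPKM, and their part in these levels was not tested. ZFAS1 and SNHG12 had the reverse order, with SNHG12 at 9.16, 16.8, 7.18 and 14.8 FPKM in H/R. The summed hepatic and endoderm markers of the same libraries were 502.8, 1160, 399.9 and 840.6 FPKM, in the same order as ZFAS1 and SNHG12, and their part was not tested.

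Of the 304 antisense transcripts, 40 were higher and 33 lower in H/R+BA than in H/R, 24.01% in all (limma on log2(FPKM + 1), adjusted p under 0.05). Over all 14334 genes tested, 24.7% were called, 13.7% higher and 11.1% lower, so the share among the antisense transcripts was near that of the other genes. Their median log2 fold change was 0.02, against 0.01 over all genes tested. All 12 transcripts that passed the level rule through 1 group only were among the calls, and without them 61 of 292 (20.9%) were called. The 292 still hold transcripts such as RP11-1260E13.1 and HOXB-AS1, which reached 2 FPKM in all 4 H/R+BA libraries and in 1 H/R library. Their selection is thus also tied to the group where they were high. Of the 192 transcripts at 2 FPKM in all 8 libraries, 20 were higher and 22 lower. The values of the groups did not overlap for 74 transcripts (24.3%), against 28.6% of all genes tested. At the same level of 2 FPKM, 27.8% of 205 lincRNAs and 26.3% of 11537 protein-coding genes were called. By position, 16 divergent transcripts were higher and 16 lower, 15 internal ones were higher and 11 lower, and 4 tail to tail ones were higher and 5 lower.

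**Figure D2:**
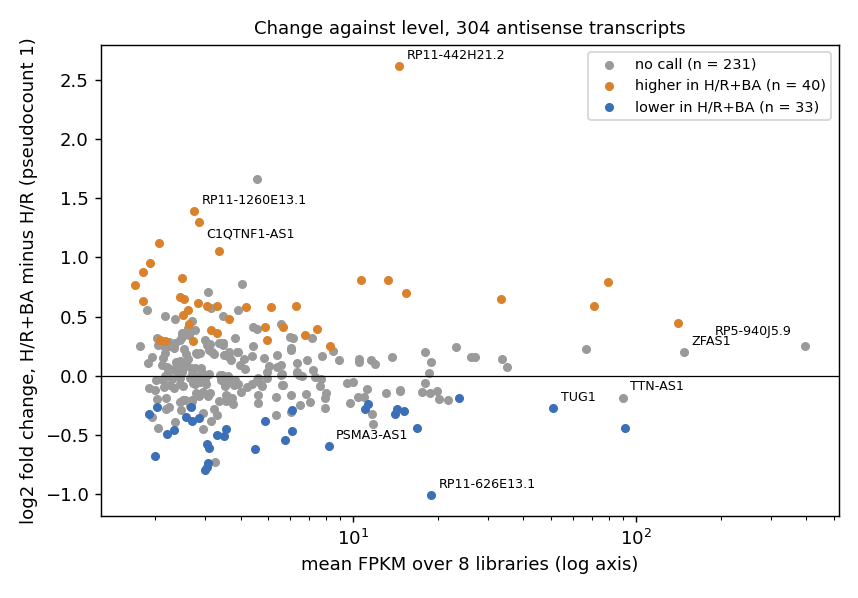
Log2 fold change between H/R+BA and H/R against the mean FPKM of 304 antisense transcripts, on a log axis, coloured by call. The 40 higher and 33 lower transcripts reach from the lowest levels up to RP11-70C1.3 at 140.4 FPKM, and RP11-442H21.2 lies highest at 2.62.

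C1QTNF1-AS1, whose promoter is printed above, rose the most among the tested transcripts with a sense gene of the same symbol. It had 1.19, 1.23, 1.10 and 1.295 FPKM in H/R and 4.38, 5.52, 4.50 and 3.54 FPKM in H/R+BA. Every H/R+BA library was above every H/R library (log2 fold change 1.30, SE 0.11, adjusted p = 2.17e-04, limma). It lies at chr17:79018131-79027673 inside C1QTNF1, the gene of a secreted protein of the adiponectin-like CTRP family, and 0.0% of its exon bases lie under coding exons. C1QTNF1 rose too, from 11.7 ± 0.637 to 16.4 ± 0.881 FPKM (SD, n = 4, log2 fold change 0.45, adjusted p = 0.00133, limma). C1QTNF1-AS1 met the level rule only through H/R+BA.

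RP11-1260E13.1, opposite the exocytosis gene RPH3AL, had 0.700, 2.11, 0.923 and 0.736 FPKM in H/R and 4.27, 4.34, 3.95 and 4.96 FPKM in H/R+BA. It met the level rule through all H/R+BA libraries and 1 H/R library. Replicate 2 of H/R stood above the other 3 and still below all H/R+BA libraries (log2 fold change 1.39, adjusted p = 0.00102, limma), and RPH3AL rose by 0.52 on the log2 scale (adjusted p = 0.00973). RP11-785D18.3, opposite PTPRB, a receptor phosphatase of endothelial cells, had 1.00, 0.806, 1.14 and 0.718 FPKM in H/R and 2.68, 3.48, 4.01 and 2.64 FPKM in H/R+BA (log2 fold change 1.12, adjusted p = 5.79e-04). PTPRB itself had a log2 fold change of 0.26 that was not called (adjusted p = 0.0637), and 55.9% of the antisense exon bases lie under coding exons. The summed endothelial markers were likewise higher in H/R+BA, as given above, and more cells of a type and more RNA per cell cannot be told apart in bulk RNA. The part of these markers in the change was not tested.

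UNC5B-AS1 rose inside UNC5B, the gene of a netrin receptor. It measured 9.31, 7.19, 11.6 and 9.64 FPKM in H/R and 18.2, 18.4, 15.8 and 15.99 FPKM in H/R+BA, again without overlap (log2 fold change 0.81, adjusted p = 0.00169, limma). UNC5B was at 0.06 with no call (adjusted p = 0.619). AC137932.6, within the chromatin regulator gene ANKRD11, had 0.771, 0.929, 1.29 and 0.980 FPKM in H/R and 3.22, 2.97, 2.50 and 2.69 FPKM in H/R+BA (log2 fold change 0.95, adjusted p = 5.69e-04), while ANKRD11 was not called, at −0.05 (adjusted p = 0.537). Neither antisense transcript has exon bases under coding exons. RP11-486A14.2, which starts 130 bases from NUDT4, a gene of inositol phosphate turnover, was also free of exon overlap and rose by 0.82 (adjusted p = 0.00626), from 1.53 ± 0.533 to 3.44 ± 0.704 FPKM (SD, n = 4).

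Further increases were found for ARAP1-AS1 and RP4-816N1.7, whose exons lie almost wholly under coding exons, and for PCAT6 and HAS2-AS1, whose exons do not. ARAP1-AS1, 99.2% of it under exons of the Arf GTPase regulator ARAP1, had 4.06, 7.86, 7.98 and 10.7 FPKM in H/R and 14.6, 16.8, 12.2 and 11.0 FPKM in H/R+BA (log2 fold change 0.81, adjusted p = 0.0297, limma). It was not called without replicate 1, 2 or 3 of H/R+BA (adjusted p = 0.0740, 0.0842 and 0.0518) or without a filter on low values (0.0960). RP4-816N1.7, opposite the HSP90 co-chaperone gene FKBP4, rose by 0.77 (adjusted p = 0.0164, and 0.0617 without a filter on low values), and 1 H/R library held 0.257 FPKM against 1.19 to 1.41 FPKM in the other 3. PCAT6, which overlaps no coding gene, had 13.1, 10.1, 13.1 and 9.79 FPKM in H/R and 18.4, 21.4, 19.1 and 17.7 FPKM in H/R+BA (log2 fold change 0.70, adjusted p = 0.00197). HAS2-AS1, with 4.4% of its exon bases under coding exons, rose together with HAS2, the gene of a hyaluronan synthase. It had 1.69, 1.51, 1.85 and 1.58 FPKM in H/R and 3.32, 3.84, 2.57 and 3.17 FPKM in H/R+BA (log2 fold change 0.66, adjusted p = 0.00233), and HAS2 rose by 0.81 (adjusted p = 2.94e-04). HAS2-AS1, AC137932.6, RP11-785D18.3 and RP4-816N1.7 met the level rule only through H/R+BA.

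**Figure D3:**
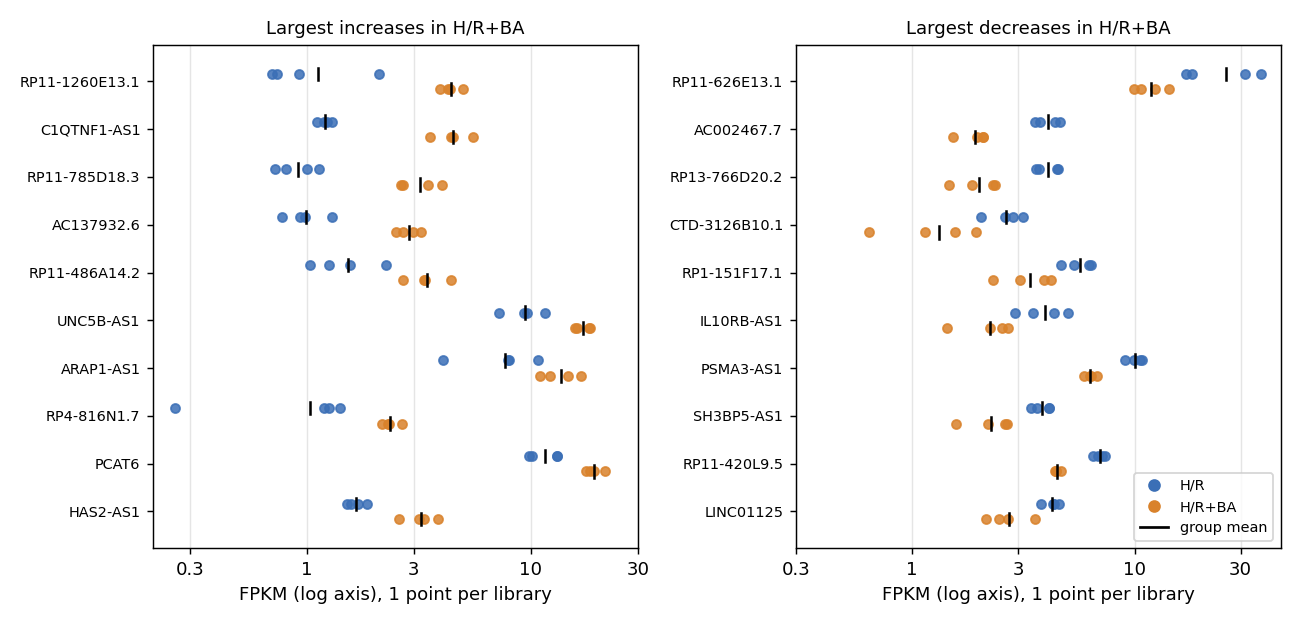
FPKM of antisense transcripts that were called and whose groups do not overlap, for the 10 with the strongest rise and the 10 with the strongest fall, 1 point per library on a log axis, with the mean of each group as a bar. In each row all H/R+BA libraries lie on 1 side of all H/R libraries, as the choice of these transcripts required.

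Among the 10 transcripts of highest level, 3 rose. RP1-261G23.7, a single exon of 188 bases at chr6:43770429-43770616 wholly under an exon of VEGFA, had 42.9, 84.2, 51.6 and 57.8 FPKM in H/R and 104.2, 118.9, 97.2 and 82.1 FPKM in H/R+BA. Replicate 2 of H/R lay above replicate 4 of H/R+BA, and the log2 fold change was 0.79 (adjusted p = 0.0135, limma, and 0.0515 without a filter on low values). VEGFA, which encodes the main angiogenic growth factor, rose by 0.43 (adjusted p = 0.00620), and whether its reads are part of the antisense value was not tested. RP11-161H23.5, 97.9% under exons of the tubulin gene TUBA1C, had 53.6, 59.7, 44.8 and 69.2 FPKM in H/R and 84.7, 85.1, 78.2 and 91.6 FPKM in H/R+BA (log2 fold change 0.59, adjusted p = 0.00627), and TUBA1C rose by 0.31 (adjusted p = 0.00477). RP11-70C1.3 had 123.1, 105.6, 109.5 and 137.1 FPKM in H/R and 177.6, 174.8, 151.4 and 143.8 FPKM in H/R+BA (log2 fold change 0.44, adjusted p = 0.00998). It lies opposite the chemokine receptor gene ACKR2, which had a mean of 1.17 FPKM and was not called (log2 fold change −0.09, adjusted p = 0.509). Of the exon bases of RP11-70C1.3, 35.7% lie under coding exons of the other strand. Another 24.9% is the share under coding exons of its own strand, where HIGD1A, a mitochondrial gene induced by hypoxia, is annotated. RP11-386G11.10, named TUBA1B-AS1 in GENCODE 44, had a log2 fold change of 0.23 that was not called (adjusted p = 0.0613) and that was called without replicate 3 of H/R+BA (adjusted p = 0.0332).

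The largest decrease with groups apart was that of RP11-626E13.1, inside SORBS2, the gene of an adaptor protein of the Z-disc. It had 31.6, 17.1, 37.0 and 18.1 FPKM in H/R and 14.2, 12.4, 9.94 and 10.7 FPKM in H/R+BA. The H/R libraries spread widely, with replicates 1 and 3 high, and all were above H/R+BA (log2 fold change −1.01, SE 0.23, adjusted p = 0.0129, limma). SORBS2 fell from 282.7 ± 90.8 to 151.2 ± 10.9 FPKM (SD, n = 4, log2 fold change −0.85, adjusted p = 0.0117), and 49.0% of the antisense exon bases lie under its exons. AC002467.7 (CBLL1-AS1) fell by 0.80 on the log2 scale, from 3.74, 4.37, 3.55 and 4.63 FPKM to 2.09, 1.96, 2.08 and 1.53 FPKM (adjusted p = 0.00101), while CBLL1, a ubiquitin ligase gene, was at 0.07 with no call (adjusted p = 0.606). RP13-766D20.2, which overlaps the actin gene ACTG1, had 4.49, 3.73, 4.53 and 3.60 FPKM in H/R and 1.85, 2.30, 1.46 and 2.37 FPKM in H/R+BA (log2 fold change −0.77, adjusted p = 0.00223). ACTG1 fell by 0.31 (adjusted p = 0.0469), and 7.0% of the antisense exon bases lie under coding exons.

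PSMA3-AS1 fell while its sense gene rose. The antisense transcript had 9.07, 10.6, 9.95 and 10.8 FPKM in H/R and 6.75, 6.33, 5.92 and 6.35 FPKM in H/R+BA, narrow groups that did not overlap (log2 fold change −0.60, SE 0.07, adjusted p = 8.29e-04, limma). PSMA3, which encodes an alpha subunit of the proteasome core, went from 75.7 ± 2.67 to 87.9 ± 2.57 FPKM (SD, n = 4, log2 fold change 0.21, adjusted p = 0.00947). None of the exon bases of PSMA3-AS1 lie under coding exons of the other strand (0.0%), and by start site its nearest coding gene is ARID4A, at 370 bases. ARID4A was not called (log2 fold change −0.0025, adjusted p = 0.987, limma), so the opposite directions hold for PSMA3 and not for ARID4A. RAB11B-AS1 fell with RAB11B, a GTPase gene of recycling endosomes. It had 4.50, 4.03, 3.71 and 3.95 FPKM in H/R and 2.40, 2.74, 2.78 and 2.34 FPKM in H/R+BA (log2 fold change −0.50, adjusted p = 0.00314), and RAB11B fell by 0.35 (adjusted p = 0.00175).

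Other decreases were those of CTD-3126B10.1, RP1-151F17.1, IL10RB-AS1, SH3BP5-AS1, RP11-420L9.5 and LINC01125, with log2 fold changes of −0.68 to −0.51. CTD-3126B10.1 lies wholly under an exon of PDPK1, the kinase gene upstream of AKT, and met the level rule only through H/R (adjusted p = 0.0206, limma, against 0.0527 without replicate 4 of H/R+BA and 0.0738 without a filter on low values). PDPK1 fell by 0.38 (adjusted p = 0.0143). RP1-151F17.1 (ATXN1-AS1) starts 353 bases from ATXN1, which fell by 0.26 (adjusted p = 0.0367), while the antisense transcript went from 5.66 ± 0.796 to 3.37 ± 0.860 FPKM (SD, n = 4, adjusted p = 0.0149, limma, and 0.0506 without a filter on low values). IL10RB-AS1, at the start of a cytokine receptor subunit gene, had 3.51, 5.03, 2.90 and 4.33 FPKM in H/R and 2.55, 1.43, 2.70 and 2.25 FPKM in H/R+BA (log2 fold change −0.61, adjusted p = 0.0252). It was not called without H/R replicate 2 or 4 or H/R+BA replicate 2 or 4 (adjusted p = 0.0509, 0.0616, 0.0596 and 0.0529) or without a filter on low values (0.0816). Of its exon bases, 84.6% lie under coding exons. RP11-420L9.5, which starts 602 bases from PXDC1, had 6.85, 6.51, 7.37 and 7.18 FPKM in H/R and 4.44, 4.69, 4.42 and 4.38 FPKM in H/R+BA (log2 fold change −0.54, adjusted p = 8.85e-04), and PXDC1 was not called (log2 fold change −0.16, adjusted p = 0.170).

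Of the highest transcripts, RP11-138I1.4 and TUG1 fell. RP11-138I1.4, wholly under exons of the ubiquitin gene UBB, had 97.4, 108.5, 115.6 and 98.8 FPKM in H/R and 69.6, 77.8, 85.5 and 75.2 FPKM in H/R+BA (log2 fold change −0.44, adjusted p = 0.00348, limma). UBB was not called, at 0.09 (adjusted p = 0.342). TUG1, a widely expressed nuclear and cytoplasmic RNA that starts 471 bases from MORC2, had 55.1, 53.0, 62.2 and 53.3 FPKM in H/R and 45.8, 47.6, 44.6 and 46.2 FPKM in H/R+BA. All 4 H/R+BA libraries were below H/R (log2 fold change −0.27, SE 0.06, adjusted p = 0.00987).

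Antisense and related transcripts with a described role were counted by list. The share called over all genes tested was 24.7%, with 13.7% higher and 11.1% lower, and each list is too small to be set against it. Of the heart and mesoderm list, 5 were members (TTN-AS1, NPPA-AS1, HAND2-AS1, TBX5-AS1 and HOXB-AS1) and 1, HOXB-AS1, was called, with a median log2 fold change of 0.08. HOXB-AS1 had 0.720, 0.575, 2.18 and 0.647 FPKM in H/R and 2.62, 3.37, 2.15 and 2.25 FPKM in H/R+BA, so that replicate 3 of H/R lay among the H/R+BA values (log2 fold change 0.88, adjusted p = 0.0173, limma, and 0.0532 without replicate 2 of H/R+BA or 0.0650 without a filter on low values). HOXB-AS1 met the level rule through all H/R+BA libraries and 1 H/R library. All 3 snoRNA hosts among the members (ZFAS1, SNHG7, SNHG12) were without a call, although FAM69B, the coding gene that meets SNHG7 tail to tail, rose by 0.71 (adjusted p = 3.63e-04). Of 4 members on the list of post-transcriptional regulators, TUG1 and FGD5-AS1 fell and ZEB1-AS1 and BACE1-AS were not called, with a median of −0.10. FGD5-AS1 had 24.98, 24.8, 26.6 and 24.7 FPKM in H/R and 21.5, 22.97, 21.7 and 22.2 FPKM in H/R+BA (log2 fold change −0.18, adjusted p = 0.0246). It was not called without H/R replicate 3 or H/R+BA replicate 1, 3 or 4 (adjusted p = 0.0517, 0.0702, 0.0680 and 0.0554). The list of inflammation and antigen presentation had IL10RB-AS1 as its 1 member, the list of vessel and matrix had LOXL1-AS1 (log2 fold change 0.22, adjusted p = 0.244), and the hypoxia list had 0 members.

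A sense gene was sought for the 100 transcripts whose symbol ends in -AS1 or -AS2. It was listed for 97 and tested for 83, which makes 82 sense genes because 1 has a pair of antisense transcripts. Of these sense genes 15 were higher and 7 lower (26.8%, against 24.7% of all genes), and their median log2 fold change was 0.01. Without replicate 1 or 2 of H/R+BA, 9 were higher, and without replicate 2 or 3 of H/R+BA, 4 were lower. Of the 83 antisense transcripts in these pairs, 8 were higher and 10 lower. Both members of a pair were called in 5 cases. In 3 both rose (C1QTNF1-AS1, ARAP1-AS1, HAS2-AS1), in 1 both fell (RAB11B-AS1), and in 1 the antisense fell while the sense gene rose (PSMA3-AS1). C1QTNF1-AS1, HAS2-AS1 and SLC16A1-AS1 met the level rule only through H/R+BA and RARA-AS1 and PPP1R26-AS1 only through H/R, so these 5 had to differ between the groups. Among the 78 pairs without them, 5 antisense transcripts were higher and 8 lower, and both members rose in 1 pair. Only the antisense transcript was called in 13 pairs, only the sense gene in 17 and neither in 48. Across the 83 pairs, the changes of antisense and sense had a Pearson correlation of 0.34, a description over genes that share the same 8 libraries.

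**Figure D4:**
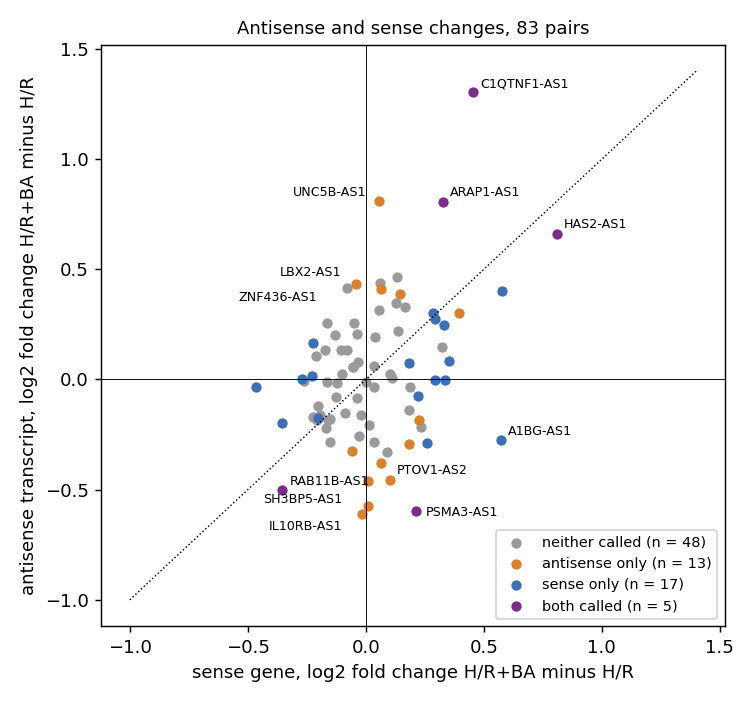
Log2 fold change of 83 antisense transcripts (vertical) against that of the sense gene of the same symbol (horizontal), coloured by which of both was called, with a dotted line of equal change. C1QTNF1-AS1 and UNC5B-AS1 lie far above the line, and PSMA3-AS1 and A1BG-AS1 far below it.

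The level of the antisense transcript was a median of 24.7% of that of its sense gene, from 0.518% to 1233% (FPKM, per length). It was above the sense gene in 14 of 83 pairs. THAP9-AS1, at 18.5 FPKM against 1.498 FPKM for THAP9, had the largest ratio, and 11.0% of its exon bases lie under coding exons of SEC31A, a vesicle coat gene on its own strand. FGD5-AS1 followed at 23.7 FPKM against 2.77 FPKM for FGD5, an endothelial exchange factor gene.

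The ratio of antisense to sense was set side by side in the 8 libraries as log2((antisense FPKM + 1)/(sense FPKM + 1)). Among 83 pairs, 20 had an exact permutation p of 0.0286, the smallest that 4 libraries against 4 allow (two-sided). These include C1QTNF1-AS1, RARA-AS1 and PPP1R26-AS1, which met the level rule through 1 group only. Their antisense levels had to differ between the groups, so their ratios are no independent result. After adjustment over the 83 pairs, 0 passed 0.05, the smallest value being 0.119. The pairs that follow were chosen for the size of their difference, so their values are a description. The ratio of C1QTNF1-AS1 rose from a mean of −2.52 ± 0.118 in H/R to −1.67 ± 0.210 in H/R+BA (SD, n = 4), and that of UNC5B-AS1 from −0.61 ± 0.193 to 0.14 ± 0.0925. ZNF436-AS1, ARAP1-AS1 and LBX2-AS1 had differences of 0.49, 0.48 and 0.48 in the same direction, and the libraries of the groups overlapped for ARAP1-AS1 and LBX2-AS1. The antisense transcripts LBX2-AS1 (0.43, adjusted p = 0.00776, limma) and ZNF436-AS1 (0.41, adjusted p = 0.0902, and 0.0373 without H/R replicate 3) had the log2 fold changes given. In the other direction, A1BG-AS1 went from −1.34 ± 0.0619 to −2.19 ± 0.210 and PSMA3-AS1 from −2.79 ± 0.0540 to −3.60 ± 0.102.

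A1BG-AS1 itself was not called (log2 fold change −0.28, adjusted p = 0.0513, limma), and it was called without H/R replicate 2 or H/R+BA replicate 1 (adjusted p = 0.0302 and 0.0495). Its sense gene A1BG, which encodes a plasma glycoprotein, rose from 23.9 ± 2.62 to 36.0 ± 3.24 FPKM (SD, n = 4, log2 fold change 0.57, adjusted p = 0.00212). Coding exons of the other strand cover 61.1% of the exon bases of A1BG-AS1. IL10RB-AS1, SH3BP5-AS1 and PTOV1-AS2 had ratio differences of −0.60, −0.58 and −0.56. The shares of their exon bases under coding exons are 84.6%, 36.0% and 42.2%. SH3BP5-AS1 had 3.43, 4.11, 3.66 and 4.12 FPKM in H/R and 1.57, 2.66, 2.63 and 2.197 FPKM in H/R+BA (log2 fold change −0.58, adjusted p = 0.00876), while SH3BP5 was at 0.01 with no call (adjusted p = 0.965). PTOV1-AS2 fell by 0.45 (adjusted p = 0.0273), and was not called without H/R replicate 2 or 4 or H/R+BA replicate 1, 2 or 3 (adjusted p = 0.0557, 0.0683, 0.0757, 0.0501 and 0.0587) or without a filter on low values (0.0794). For HAS2-AS1 and HAS2 the ratio differed by −0.15 (exact permutation p = 0.286).

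With partners from the table's descriptions or from position added, 257 of the 304 transcripts had a tested partner gene. Both rose in 9 cases and both fell in 6, while 1 antisense transcript fell with a higher partner (PSMA3-AS1) and 3 rose with a lower one. Only the antisense transcript was called in 19 cases higher and 19 lower, only the partner in 32 higher and 20 lower, and neither in 148. Over all genes tested, 24.7% were called. Among the 9, C1QTNF1-AS1 and HAS2-AS1 met the level rule only through H/R+BA. Among the 6, CTD-3126B10.1 met it only through H/R, so these antisense transcripts had to differ between the groups. The 3 with a lower partner are named here after their values were seen. CTB-178M22.2 had 2.03, 1.87, 2.98 and 2.04 FPKM in H/R and 4.06, 4.92, 3.28 and 3.22 FPKM in H/R+BA (log2 fold change 0.59, adjusted p = 0.0142, limma), opposite TENM2, the gene of a teneurin adhesion protein, which fell by 0.54 (adjusted p = 0.0372). LINC00884, named ATP13A3 divergent transcript in the table, rose by 0.59 (adjusted p = 0.0127), and ATP13A3, a polyamine transporter gene, fell by 0.41 (adjusted p = 0.0447). RP1-43E13.2, antisense to EMC1 of the ER membrane protein complex, rose by 0.51 (adjusted p = 0.0256) with EMC1 at −0.22 (adjusted p = 0.0245), and leaving out any of 5 libraries, H/R replicates 1, 2 and 4 and H/R+BA replicates 1 and 2, ended the antisense call (adjusted p up to 0.0711), as did the test without a filter on low values (0.0829). By position, the divergent coding neighbour of RP1-43E13.2 is another gene, the ubiquitin ligase gene UBR4, which rose by 0.25 (adjusted p = 0.0121), so its direction against its partner depends on which gene is taken.

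Across all transcripts with a coding gene opposite, levels were compared by exon overlap. Where at least 50% of the antisense exon bases lie under coding exons, the log2 levels of both had a Pearson correlation of 0.32 over 89 pairs. It was 0.04 over 155 pairs with less overlap and −0.07 over 40 pairs with none. The correlations of the changes were 0.40, 0.35 and 0.36 over the 85, 137 and 35 pairs that were tested. These are descriptions across genes that share the libraries and, where exons overlap, possibly reads.

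**Figure D5:**
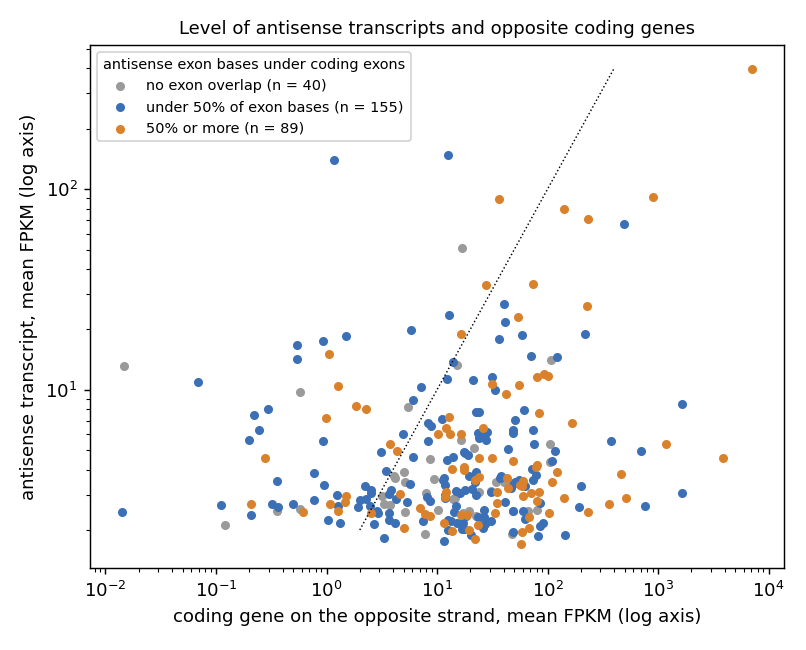
Mean FPKM of antisense transcripts (vertical) against that of the coding gene on the opposite strand (horizontal), both on log axes, coloured by the share of antisense exon bases under coding exons, with a dotted line of equal level. Most of the antisense transcripts lie below the line, and the point at the upper right is RP5-940J5.9 with GAPDH.

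The other 43 called transcripts, outside the rule for naming, had log2 fold changes of 0.25 to 2.62 (25 higher) and −0.74 to −0.24 (18 lower). Among them, 3 are named here after their values were seen. RP11-290L1.3 (PHLDA1 antisense RNA 1) had 22.1, 28.5, 20.2 and 33.4 FPKM in H/R and 43.3, 43.1, 42.2 and 34.2 FPKM in H/R+BA (log2 fold change 0.65, adjusted p = 0.0120, limma), and 97.2% of it lies under exons of PHLDA1, which rose by 0.32 (adjusted p = 0.00443). RP11-192H23.5, opposite the aldolase gene ALDOC, had 2.25, 1.43, 1.11 and 2.03 FPKM in H/R and 7.09, 7.50, 2.23 and 3.23 FPKM in H/R+BA. Replicate 3 of H/R+BA lay just below the highest H/R library, and the call (1.05, adjusted p = 0.0312) was lost without H/R replicate 2 or 3 or H/R+BA replicate 1 or 2 (adjusted p = 0.0567, 0.0707, 0.0831 and 0.0819) or without a filter on low values (0.102). By position, the divergent coding neighbour of RP11-192H23.5 is PIGS, which was not called (log2 fold change −0.11, adjusted p = 0.421). Of the antisense exon bases, 99.3% lie under coding exons. RP11-442H21.2 had the largest log2 fold change, 2.62, with 0.613, 6.18, 0.0 and 15.5 FPKM in H/R and 27.9, 35.7, 17.6 and 12.8 FPKM in H/R+BA. Replicate 4 of H/R lay above replicate 4 of H/R+BA, the SE was 0.78, and the call (adjusted p = 0.0360) was lost without any 1 of 5 libraries, namely H/R replicates 1 and 3 and H/R+BA replicates 1, 2 and 3 (adjusted p = 0.0884, 0.0677, 0.0855, 0.0943 and 0.0652). It was also lost with the deposited normalized counts (adjusted p = 0.0623), with a pseudocount of 0.1 (0.0658) and without a filter on low values (0.116).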

How the data were processed

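RNA sequencing of 8 hiPS-CM libraries was examined, 4 H/R and 4 H/R+BA. The authors trimmed the reads with Trimmomatic 0.39, aligned them with HISAT2 2.1.0 to GRCh38.p5, and name featureCounts 2.0.6 and Cuffdiff 2.2.1. No source used here gives the annotation or the strand setting. For each library the authors deposited FPKM and normalized counts, the latter a signal that is not whole numbers. The deposited summary gives the percent of reads mapped. Columns of the authors' own fold changes and p-values, 4 columns of group means and 9 other libraries of the summary were not used.

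A count test had been planned for whole counts. None were found, so log2(FPKM + 1) was tested with limma 3.58.1 in R 4.3.3 (variance trend, two-sided, Benjamini-Hochberg over the 14334 genes that reached 1 FPKM in at least 4 libraries, checked on simulated data). This scale understates the change of low genes. Without counts, no counting error is given. Ratios of antisense to sense were tested by exact permutation over libraries.

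The members and lists were chosen with earlier results of these data known. Named transcripts were the 10 highest in mean FPKM, the 10 strongest rises and 10 strongest falls among calls with groups apart, list members, those next to the level threshold, and the 5 pairs at each end of the antisense minus sense difference or with both called. Positions came from GENCODE 44, matched by gene ID for 293 of 304, and promoter windows from RefSeq. Alternatives were another pseudocount, no filter, another filter, rescaled FPKM, normalized counts, each library left out, a replicate block, no variance trend, other member levels and a 2-fold limit.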

Additional observations from a re-analysis of the deposited data

Results flagged for a closer look

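In 104 groups of 4 libraries, for 52 named transcripts, 6 had 1 library far from the other 3, and chance gives about 1 in 20. RP11-1260E13.1 measured 2.11 FPKM in H/R replicate 2, against 0.700 to 0.923 FPKM in the other H/R libraries. HOXB-AS1 measured 2.18 FPKM in H/R replicate 3, against 0.575 to 0.720 FPKM. FGD5-AS1 measured 26.6 FPKM in H/R replicate 3, against 24.7 to 24.98 FPKM, and CTB-178M22.2 measured 2.98 FPKM there, against 1.87 to 2.04 FPKM. TBX5-AS1 measured 2.41 FPKM in H/R+BA replicate 2, against 1.64 to 1.75 FPKM. RP11-290L1.3 measured 34.2 FPKM in H/R+BA replicate 4, against 42.2 to 43.3 FPKM. H/R replicate 3 accounted for 3 of these 6 values.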

How the results depend on the processing

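The counts of called antisense transcripts, 40 higher and 33 lower, stayed within 1.5 times of these values with a pseudocount of 0.1, the count filter, rescaled FPKM, normalized counts, no variance trend (35 to 44 higher, 31 to 41 lower) and each library left out (28 to 41 higher, 23 to 30 lower). Without a filter, 33869 genes were tested, of which 1648 were higher and 1169 lower. Of the antisense transcripts, 24 were then higher and 20 lower. With normalized counts, 2350 of all 14334 genes were higher and 2595 lower. With 1 library left out, 1374 to 1941 of all genes were higher and 1117 to 1571 lower. A level of 1 FPKM gave 562 transcripts, 55 higher and 57 lower (19.9%). A level of 2 FPKM in all 8 libraries gave 192 transcripts, 20 higher and 22 lower. The lower calls then outnumbered the higher ones, unlike the 40 higher and 33 lower of the main rule. Over all genes tested, 24.7% were called. A 2-fold limit on log2(FPKM + 1), a scale that understates the change of low transcripts, gave 5 higher and 1 lower. The share of all genes at this limit is not given here. With a pseudocount of 0.1, further called transcripts passed the limit. Examples are AC137932.6, RP11-486A14.2 and RP4-816N1.7, which were higher, and AC002467.7, RP13-766D20.2 and CTD-3126B10.1, which were lower. Sense genes, 15 higher and 7 lower, went to 9 higher and 5 lower without a filter and to 16 higher and 13 lower with normalized counts, and ranged from 9 to 13 higher and 4 to 7 lower with 1 library left out. The cause was not tested. Replicate numbers are shared by the groups. After the group mean of each gene was subtracted, same-numbered libraries correlated at 0.243, −0.235, −0.249 and −0.0145. The highest correlation of each H/R library with another number was 0.0983, 0.31, 0.313 and 0.113. The same number was thus highest for replicate 1 only, and the labels do not say whether the numbers pair libraries. With the replicate block, 31 antisense transcripts were higher and 22 lower, and 9 sense genes were higher and 5 lower. Over all genes, 1460 were then higher and 1071 lower. The block gave adjusted p = 0.0588 for ARAP1-AS1, 0.0786 for IL10RB-AS1, 0.0821 for FGD5-AS1 and 0.0582 for RP1-43E13.2, all called without it. Uncalled transcripts changed sign in some settings. With normalized counts ZEB1-AS1 was at 0.074 and LOXL1-AS1 at −0.056. With 1 library left out, NPPA-AS1 ranged from −0.11 to 0.21, HAND2-AS1 from −0.00015 to 0.27, SNHG12 from −0.31 to 0.065 and ZEB1-AS1 from −0.12 to 0.12. Others kept their sign, with TTN-AS1 from −0.28 to −0.081, ZFAS1 from 0.072 to 0.32, LOXL1-AS1 from 0.098 to 0.30 and SNHG7 from 0.065 to 0.24. Of 52 named transcripts, 12 lost the call and 3 gained it in at least 1 setting, and the ratio of 4 pairs lost and that of 3 reached the smallest exact p with 1 library left out. FPKM keeps no counting error, which limits what can be said of transcripts near 2 FPKM.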
